A study of Mus musculus with 15 samples.

Results

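The genes described here are those with a CpG-poor promoter that nevertheless carried a peak of H3K4me3, the trimethylation of lysine 4 on histone H3, in the amygdala of wild-type (WT) mice. They were chosen by a rule with 2 conditions. The CpG content in 500 bp either side of the outermost transcription start site (TSS), given as the number of CpG dinucleotides observed over the number expected from the C and G content, had to be below 0.3. A peak summit of the WT list had to lie within 1 kb of that TSS. Of 21755 protein-coding genes on chromosomes 1 to 19 and X, 7106 had a CpG-poor promoter, and 572 of these met both conditions. The remaining 6534 CpG-poor genes are called unmarked. The share of CpG-poor promoters with a summit was 8.05% (95% Wilson interval 7.44 to 8.70), and 58.6% of all coding promoters had one. Because a summit was part of the rule, these shares and the scores below are descriptions and were not tested.

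H3K4me3 was mapped in nuclei of the amygdala, a forebrain region, dissected from adult male mice, in 11 H3K4me3 samples and 4 inputs. The series holds WT, Kmt2a-heterozygous, Kdm5c-knockout and double-mutant mice, and only the WT list is used here. The WT mice were F1 animals of a cross of the strains 129S1/SvImJ and C57BL/6J. Chromatin was cut with micrococcal nuclease, recovered with an H3K4me3 antibody and sequenced, and the peaks of 2 WT samples were given as 1 list called against the input. That list pools the mice, so no value below has a spread between animals, and single animals were not analysed here. Whole tissue was used, in which neurons, glia and vessel cells were not separated. In such bulk samples, fewer cells of a type and less of the mark in each cell cannot be told apart.

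H3K4me3 marks nucleosomes beside the start sites of active genes. Most mammalian promoters of broadly used genes lie in CpG islands, stretches rich in unmethylated CpG, where CXXC-domain proteins help recruit the methyltransferases that place the mark. Promoters poor in CpG are usually methylated on DNA and belong more often to genes of a single cell type, such as myelin, immune, keratin or odorant receptor genes. Some of them hold a TATA box, a short element ahead of the TSS that positions the transcription machinery.

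CpG content at the TSS and at the summit sets the first and second kinds of promoter shown here apart, and the last is shown for its TATA box. Sequences are given for these 3 kinds of marked CpG-poor promoter. They were chosen after their values were seen and were read from GRCm38 (mm10), 5′ to 3′ on the gene's strand, with each CpG in capitals. The first set gives the 100 bases before the outermost TSS of genes with a high score or a cell type role and few CpGs. The positions are chr3:108154883-108154982 (minus strand) for Gpr61, chr1:193370299-193370398 (minus strand) for Camk1g, chr6:141524268-141524367 (plus strand) for Slco1c1, chr17:37023399-37023498 (minus strand) for Mog and chr11:78322868-78322967 (plus strand) for Aldoc.
Gpr61: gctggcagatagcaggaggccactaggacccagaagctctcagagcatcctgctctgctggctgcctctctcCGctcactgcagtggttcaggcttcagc
Camk1g: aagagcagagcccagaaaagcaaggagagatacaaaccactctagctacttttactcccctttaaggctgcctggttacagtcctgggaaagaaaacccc
Slco1c1: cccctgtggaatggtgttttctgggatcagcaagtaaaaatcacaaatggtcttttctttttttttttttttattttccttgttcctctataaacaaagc
Mog: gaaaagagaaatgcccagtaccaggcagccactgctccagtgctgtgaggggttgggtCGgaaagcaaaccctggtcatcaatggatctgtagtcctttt
Aldoc: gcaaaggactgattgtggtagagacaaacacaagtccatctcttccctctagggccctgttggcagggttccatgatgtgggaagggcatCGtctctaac
These stretches held 1 CpG in Gpr61, Mog and Aldoc and 0 in Camk1g and Slco1c1.

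The second set pairs the 100 bases before the outermost TSS with 100 bases around the summit of the same gene, since in some members the summit sat over CpG-rich DNA further into the gene. For Mprip these were chr11:59661205-59661304 (plus strand) and chr11:59662141-59662240 (plus strand). For Klhdc1 these were chr12:69241076-69241175 (plus strand) and chr12:69242120-69242219 (plus strand).
Mprip before the TSS: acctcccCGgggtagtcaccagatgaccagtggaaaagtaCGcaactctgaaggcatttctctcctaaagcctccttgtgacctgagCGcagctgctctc
Mprip at the summit: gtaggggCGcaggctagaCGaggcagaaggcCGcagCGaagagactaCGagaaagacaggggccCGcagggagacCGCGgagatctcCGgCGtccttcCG
Klhdc1 before the TSS: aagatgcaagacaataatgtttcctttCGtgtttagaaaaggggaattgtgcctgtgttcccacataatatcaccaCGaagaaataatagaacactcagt
Klhdc1 at the summit: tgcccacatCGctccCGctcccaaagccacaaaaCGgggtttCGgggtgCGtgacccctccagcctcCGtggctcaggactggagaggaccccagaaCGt
The count of CpGs went from 3 to 11 in Mprip and from 2 to 7 in Klhdc1. Both summits lay in introns, 886 bp downstream of the outermost TSS of Mprip and 994 bp downstream of that of Klhdc1.

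The last sequence is the promoter of Agt at chr8:124569707-124569806 (minus strand), with TATAAA in capitals in place of CpG. Agt encodes angiotensinogen, which astrocytes make in brain.
Agt: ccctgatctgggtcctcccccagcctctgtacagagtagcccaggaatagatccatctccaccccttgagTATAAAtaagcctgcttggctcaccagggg
Its marked promoter is taken up again with the TATA boxes below.

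The share of marked promoters climbed steeply with CpG content. Below 0.1, 20 of 1749 promoters had a summit (1.14%, 95% Wilson interval 0.741 to 1.76). From 0.1 to 0.2, 180 of 3168 did (5.68%, 4.93 to 6.54), and from 0.2 to 0.3 the count was 372 of 2189 (17.0%, 15.5 to 18.6). The intervals of these bins did not overlap. The rise went on above the threshold, with 38.9% from 0.3 to 0.4, 64.2% from 0.4 to 0.5 and 83.2% from 0.5 to 0.6, and it stayed between 92.9% and 94.5% from 0.7 upwards. The threshold of 0.3 therefore cut through a slope and did not separate distinct classes.

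**Figure D1:**
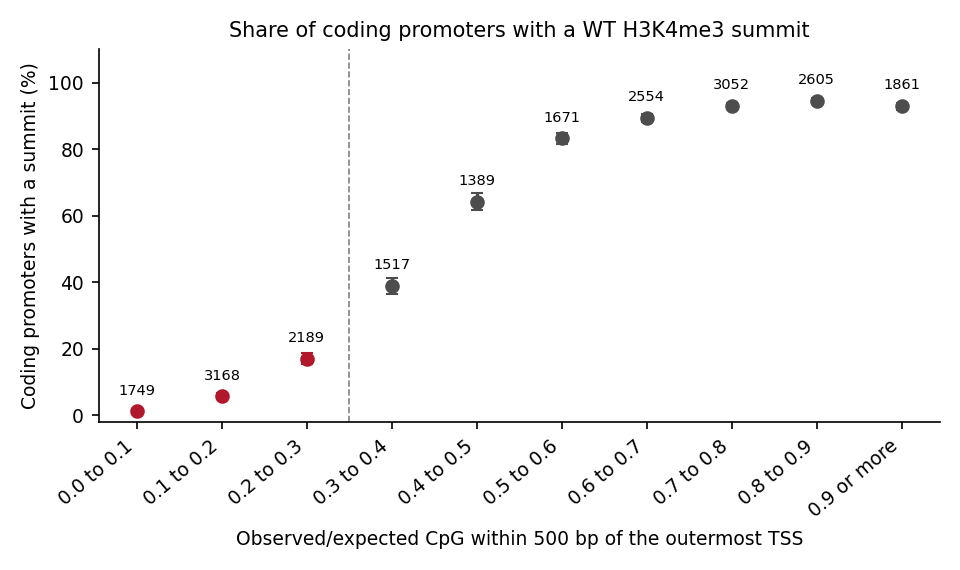
Share of coding promoters with a WT summit within 1 kb of the outermost TSS (%, y axis) by observed/expected CpG (x axis), with 95% Wilson intervals as bars, the number of genes above each point and CpG-poor bins in red. The share goes from 1.14% in the lowest bin to 17.0% just below the threshold (dashed) and 94.5% between 0.8 and 0.9.

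Genes just inside and just outside each threshold of the rule had scores that varied widely. Just below the CpG threshold lay Klhl33 at 0.299965 with a score of 188.0, Mxra8 with 6.81 and Slc25a45 with 27.0. Just above it lay Pnoc at 0.300037 with a score of 56.4, Zfp937 with 204.0 and 3300002I08Rik with 247.2. At the limit of 1 kb, Pi15 was kept with a summit at 999 bp and a score of 7.12, Best2 with one at 995 bp and Lamp5 with one 999 bp upstream of its TSS. Crct1 (1001 bp, score 47.4), 1700008O03Rik (1005 bp, 166.0) and Evi5 (1008 bp, 13.8) fell outside.

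Chemoreceptor genes, which detect odours, pheromones and tastes, made up 1494 of the 7106 CpG-poor genes (21.02%), and 0 of them had a summit. This was 0 of 1118 olfactory receptor genes, which allows a share of up to 0.268%, 0 of 327 vomeronasal receptor genes (up to 0.917%) and 0 of 49 trace amine and taste receptor genes (up to 6.12%). Without them, 572 of 5612 CpG-poor promoters (10.2%, 9.43 to 11.0) were marked. Keratins and keratin-associated proteins of skin and hair had 1 of 74, Krt77 with a score of 44.0. Counts of 0 allow up to 5.08% for 59 defensins and 7.89% for 38 epidermal differentiation proteins. For the latter the upper Wilson limit was 9.18%, so that family is not separated from the 8.05% of all CpG-poor genes either. In smaller families a count of 0 allows more than the 8.05% of all CpG-poor genes, so it does not separate them from that share. These were 32 major urinary proteins and lipocalins (up to 9.38%), 25 kallikreins (12%) and 24 chemokines (12.5%). The others were 17 membrane-spanning 4A genes (17.6%), 15 claudins (20%) and 8 globins (37.5%). Predicted genes named Gm or Rik were marked in 20 of 1147 cases (1.74%, 1.13 to 2.68), below the 8.05% of all CpG-poor genes.

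An unmarked outermost TSS did not always mean a gene without a peak. Of the 6534 unmarked genes, 731 (11.2%) had a summit within 1 kb of another of their annotated TSSs, and 732 (11.2%) had one 1 to 5 kb from the outermost TSS. Either held for 1074 genes (16.4%) and neither for 5460 (83.6%, 82.6 to 84.4).

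Summit scores of the 572 genes were spread over the whole range of the list and were mostly low. The score was read as −log10 of the q-value of the peak against the input, so it reflects both enrichment and read depth, and is not an amount of H3K4me3. The median score was 24.0 (quartiles 9.09 and 86.2, lowest 1.90, highest 312.2). The 12186 marked genes with more CpG had a median of 196.5 (136.6 and 230.4). A score of at least 100 was found for 132 members (23.1%, 19.8 to 26.7) and for 82.7% of the other marked genes, and a score of at least 200 for 43 members (7.52%, 5.63 to 9.97) and 48.2%. Within the CpG-poor genes the median score was 12.7 in the lowest bin of CpG, 17.0 in the next and 27.3 from 0.2 to 0.3, and it was 80.4 in the bin just above the threshold.

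**Figure D2:**
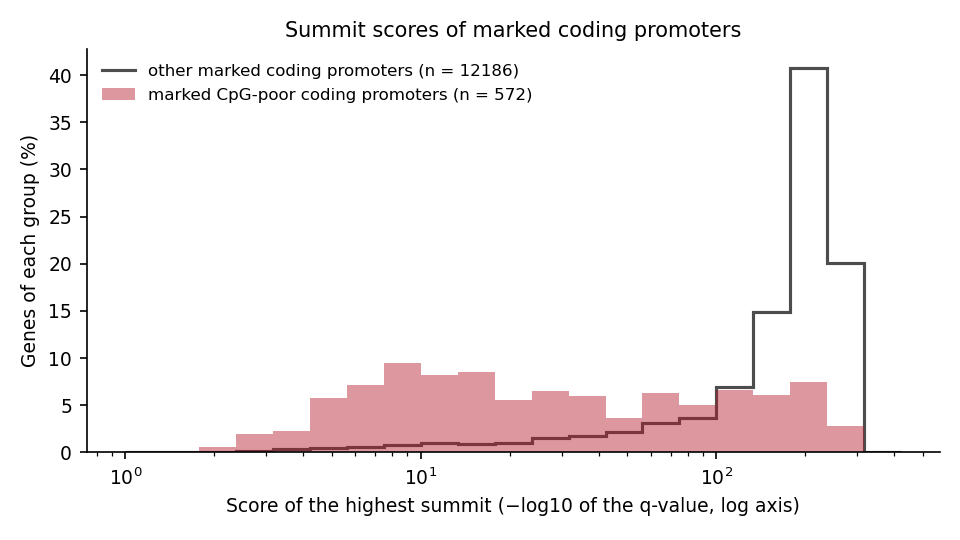
Distribution of the score of the highest summit (−log10 of the q-value, log x axis) as a share of each group (%, y axis), for the 572 marked CpG-poor coding promoters (filled) and the 12186 other marked coding promoters (line). The CpG-poor group is broad, with a median of 24.0, and the other group peaks around its median of 196.5.

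The members with the highest scores, among those with no TSS of another gene within 1 kb of the summit, included several genes used in neurons. Zfp950, a zinc finger gene on chromosome 19 with its outermost TSS at 61140840, had the highest score of the 572 (312.2, above 99.9% of the list), with its summit in an intron 201 bp downstream. Glrx, the thiol reductase glutaredoxin (chromosome 13, TSS at 75839868), followed with 309.6 and an exonic summit at 202 bp, and its CpG content was 0.218 at the TSS and 0.240 around the summit. Bcl9, a coactivator of the Wnt pathway (chromosome 3, 97297917), had 268.7.

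Kcnj9 encodes the G-protein-gated potassium channel subunit GIRK3 (chromosome 1, 172329318) and had a score of 266.8 in an intron. Slc4a10, a sodium bicarbonate transporter of neurons (chromosome 2, 62046462), had 249.96 at a summit 199 bp downstream where CpG content was 0.222. Gpr61, an orphan receptor (chromosome 3, 108154882), reached 248.2 with a CpG content of only 0.115. Camk1g, a calmodulin-dependent kinase (chromosome 1, 193370298), reached 243.9 with 0.145. These genes scored above the median of the CpG-richer group while carrying 8 and 9 CpGs in 1001 bases in Gpr61 and Camk1g, and the CpG content around their summits, 0.136 and 0.111, was also low.

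March1, a membrane ubiquitin ligase, had a score of 241.0, and Ypel4 one of 232.9. In 3 of the 12 highest, the summit lay far from the outermost TSS over DNA with more CpG. Atp5j2, a subunit of the mitochondrial ATP synthase, had its summit (score 255.6) at 752 bp, where CpG content was 0.581 against 0.219 at the TSS. For Lrp1b, a receptor of the LDL receptor family, the summit (253.8) was at 759 bp with 0.583, and for Dph1, which acts in diphthamide synthesis, the summit (235.5) was at 939 bp with 0.572.

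The members with the least CpG covered a wide span of scores. Ly6c1, an endothelial surface antigen, had the lowest CpG content (0.0516) and a score of 12.2. Trim30a, an interferon-inducible gene, had 0.0587 and 5.38. Slco1c1, a thyroid hormone transporter at the blood-brain barrier, had 0.0626 and a score of 76.6 with an exonic summit 304 bp downstream. Inpp5j, an inositol polyphosphate 5-phosphatase, had 5 CpGs in 1001 bases (a content of 0.0660) and scored 222.8, which 83.7% of the list did not reach. Sla, an adaptor of lymphoid and myeloid signalling, had 0.0805 and 4.96. Inpp5j thus stood apart from the other genes named here in score and not in CpG content.

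The lowest scores of all belonged to Alox5ap (1.90), which serves leukotriene synthesis, the interleukin receptor gene Il7r (2.096), Tmem219 (2.35) and Slc13a4 (2.495). These lie near the smallest value that the q-value limit of 0.1 lets through, which is 1 on this scale.

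Summits lay mostly just inside the gene. The median position was 266 bp downstream of the outermost TSS (quartiles 171 and 561 bp), close to the 276 bp of the other marked genes. The summit was downstream in 535 of 572 genes (93.5%, 91.2 to 95.3), compared with 84.3% (83.7 to 85.0) of the other marked genes, and 297 summits fell 100 to 400 bp downstream. By annotation, 283 summits were in exons, 252 in introns and 37 before the gene. An exon of any annotated gene on either strand counted as an exon, here and for single summits called exonic. Another TSS of the same gene was nearer to the summit than the outermost one in 374 genes (65.4%), and in 179 of these the nearer TSS was within 100 bp of the outermost. Measured from the nearest TSS of the same gene, the median distance was 162 bp in members and 165 bp in the other marked genes.

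CpG content around the summit set the members apart further. In 403 genes (70.5%, 66.6 to 74.0) it was also below 0.3, with a median score of 18.7 and a median position of 232 bp. In 143 genes it was 0.3 to 0.6, with a median score of 43.5 at 443 bp. In 26 genes it was 0.6 or more, with a median score of 80.6 at 781 bp. Windows of a summit and a TSS less than 1 kb apart overlap, so the rule itself keeps CpG-rich summits away from the TSS. Mprip (0.190 at the TSS, 0.937 at the summit, score 188.4) and Klhdc1 (0.273, 0.920, 224.7) are of this last kind. Scores of at least 200 occurred in all 3 groups, in 19 of 403, 21 of 143 and 3 of 26 genes. A high score over CpG-poor DNA was therefore found in 19 genes, Glrx, Kcnj9, Slc4a10, Gpr61, Camk1g, Ypel4 and Inpp5j among them.

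**Figure D3:**
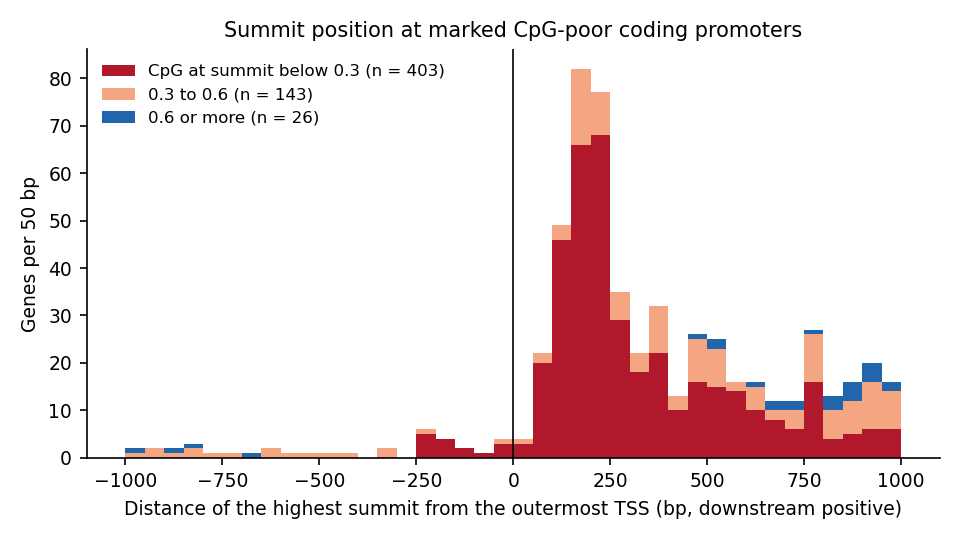
Number of members per 50 bp (y axis) by distance of the highest summit from the outermost TSS (bp, x axis, downstream positive), coloured by observed/expected CpG within 500 bp of the summit. Summits over CpG-poor DNA (403) gather around 232 bp downstream, and the 26 over CpG-rich DNA have a median of 781 bp.

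Some summits could belong to a neighbouring gene. A TSS of another gene lay within 1 kb of the summit in 74 members (12.9%, 10.4 to 15.9), and in 32.8% (31.97 to 33.6) of the other marked genes. In 40 members that TSS was the nearest one, and it was coding in 27 and non-coding in 13. The median score was 22.5 for the 498 members with no such TSS, 76.4 for the 27 and 74.2 for the 13. In all, the 572 genes had 561 distinct highest summits, since 21 members shared 10 summits. Among these were Igtp and Irgm2 (159.9), Il18 and Bco2 (138.4), Tmem176a and Tmem176b (105.4) and Rtp4 and Masp1 (102.5). A further summit within 1 kb was present in 23 members.

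Sequence features other than CpG also differed between marked and unmarked CpG-poor promoters. GC content had a median of 50.5% in members and 44.7% in unmarked genes (46.7% without the chemoreceptors). The gap was present within bins of CpG content, with 48.3% and 41.4% below 0.1, 50.6% and 44.8% from 0.1 to 0.2, and 50.5% and 47.8% from 0.2 to 0.3. Marked promoters still had more CpGs in these bins, with medians of 4.5 against 3, 10 against 7 and 16 against 14. The bins also kept the chemoreceptors, so a gap apart from CpG or from that family was not tested. The quartiles of marked and unmarked promoters overlapped in each of these bins. Members also had more CpG within the CpG-poor range, with a median content of 0.231 against 0.148 and 13 CpGs against 7 in the window. Without the chemoreceptors, the medians of the unmarked genes were 0.164 and 9 CpGs. Repeat content was alike, at 12.8% and 14.4%.

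**Figure D4:**
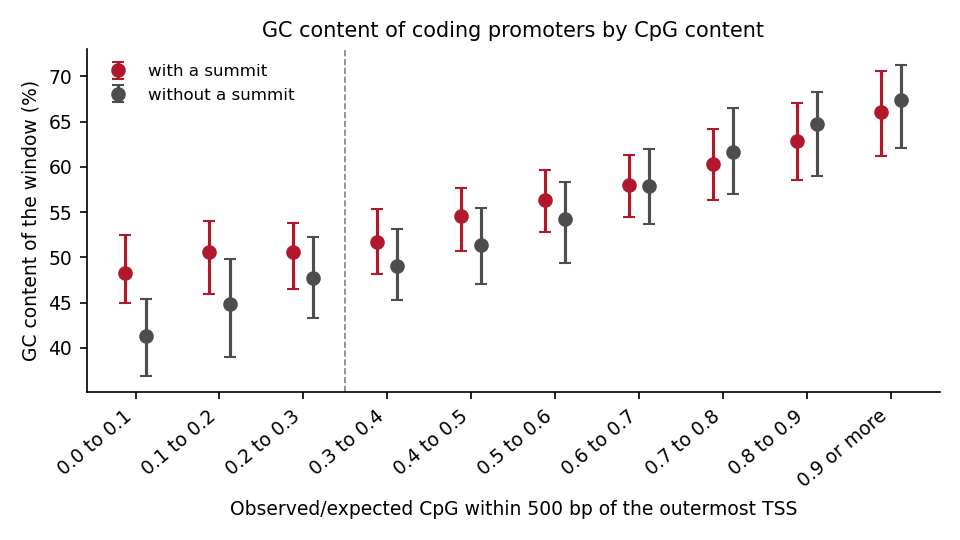
Median GC content of the 1001 bases around the outermost TSS (%, y axis, bars for quartiles) by observed/expected CpG (x axis), for coding promoters with (red) and without (grey) a WT summit. Marked promoters have the higher median in each bin below 0.3, 48.3% against 41.4% in the lowest, and the order is turned round from 0.7 upwards.

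TATA boxes were found in a smaller share of marked than of unmarked CpG-poor promoters, a difference that is described by its intervals and was not tested. TATAAA beginning 20 to 40 bases before the TSS, on the gene's strand, was found in 11 of 572 members (1.92%, 1.08 to 3.41) and in 359 of 6534 unmarked genes (5.49%, 4.97 to 6.07). The share over all coding promoters was 2.44%, and it was 0.788% in the other marked genes. Below a CpG content of 0.1, the motif was found in 0 of 20 members and 112 of 1729 unmarked genes (6.48%), and from 0.2 to 0.3 in 6 of 372 members (1.61%) and 84 of 1817 (4.62%). The intervals of members and unmarked genes did not overlap over all CpG-poor genes or from 0.2 to 0.3, and they overlapped in the lower bins. Leaving out the chemoreceptors gave 6.35% in the unmarked genes. Only the outermost TSS was searched, so a motif ahead of another TSS of the gene was not counted. A single annotated TSS was found in 14.7% of members and 36.6% of unmarked genes, chemoreceptors included, so this limit bears more on members. Its part in the difference was not tested.

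Members with the motif had low to middling scores. They included Serpinb1a, a protease inhibitor (55.1), Agt (49.03), the orexin gene Hcrt (45.3), the mucin gene Muc1 (24.0) and the muscle kinase gene Srpk3 (22.4). Agt, whose summit lay in an intron 155 bp downstream, is an example with a single annotated transcript. CCAAT, searched on both strands in the 100 bases before the TSS, was present in 15.7% of members, 18.8% of unmarked genes and 21.04% of all coding promoters. The motifs are letters in a fixed window and no binding was measured.

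Marked CpG-poor genes were longer and had more annotated transcripts. Their median length was 18617 bp against 8455 bp in unmarked genes, with 8 and 4 exons in the transcript with the most exons and 4 and 2 transcripts. Without the chemoreceptors, the unmarked genes had medians of 10632.5 bp, 5 exons and 2 transcripts, so the gaps in length and exons were smaller. The shares that follow keep the chemoreceptors among the unmarked genes. A single annotated TSS was found in 84 members (14.7%) and 2394 unmarked genes (36.6%). Of the members, 10 (1.75%) had transcripts of 1 exon alone, against 632 unmarked genes (9.67%). The rule used only the outermost TSS of each gene.

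Lists of cell type markers were used to compare the peaks with brain and other tissues. They were not a check of the amygdala against other brain regions. Over any annotated TSS, a summit was found for 26 of 27 neuronal, 24 of 28 oligodendrocyte, 21 of 22 astrocyte, 20 of 22 microglial and 21 of 25 endothelial and mural genes. The count was 4 of 18 for lymphocyte, 3 of 20 for muscle, 3 of 20 for testis, 1 of 9 for erythroid, 1 of 20 for liver and 0 of 19 for pancreas and gut genes. By this measure 65.2% of all coding genes had a summit. The lists differ in CpG content, which these counts do not allow for. CpG-poor genes were 6 of 27 neuronal, 16 of 22 microglial, 18 of 20 liver and 15 of 19 pancreas and gut genes. Among the CpG-poor genes of these lists, marked promoters were common in glial and vessel lists and absent from the neuronal list, and the background was 8.05%.

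Oligodendrocytes wrap axons in myelin, and 8 of their 11 CpG-poor marker genes were marked, with scores from 38.4 to 114.1 and a median of 87.9. Ermn, a cytoskeletal protein of myelinating cells, had the highest (114.1). The myelin proteins Mog and Mag had 102.8 and 94.8. Their CpG contents were 0.147 and 0.162, and the Mog summit was in an exon 227 bp downstream and that of Mag in an intron at 483 bp. Hapln2, a matrix protein of the nodes of Ranvier, had 61.2, Opalin 59.5 and the lipid carrier Apod 38.4. The unmarked genes were Sox10, the transcription factor of the lineage, with the strongest summit in 5 kb at 1921 bp (70.0), Gpr17, with one at 1874 bp (30.9), and Gjb1, with a summit at another TSS.

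Astrocyte genes gave 5 marked of 8 CpG-poor, with a median score of 84.3. Aldoc, a glycolytic aldolase, had 151.7 at an intronic summit 386 bp downstream. The fatty acid binding protein Fabp7 had 85.9, the calcium-binding protein S100b 84.3, the acyl-CoA synthetase Acsbg1 69.7 and Agt 49.03. Of the unmarked genes, Mlc1 had a summit just out of reach at 1100 bp (74.0), Gfap, the intermediate filament of astrocytes, had one at 4044 bp (29.2), and Aqp4, the water channel, had a summit at another TSS.

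Endothelial and mural genes gave 6 of 10. Slco1c1 had 76.6, Slco1a4, an organic anion transporter, 40.2, and Cdh5, the cadherin of endothelial junctions, 32.3. Emcn, an endothelial sialomucin, had 17.3, Ly6c1 12.2 and Vtn, the adhesion protein vitronectin, 10.2. For Vtn, a summit of 214.8 lay further away, within 5 kb of the TSS. Pecam1 and Egfl7 had a summit at another TSS, and Acta2 and Higd1b had none at any TSS or in 5 kb.

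Microglia, the resident immune cells of brain, gave 11 of 16 CpG-poor marker genes, with scores between 3.81 and 28.3 and a median of 12.96. All 11 scored below every marked CpG-poor oligodendrocyte and astrocyte gene of these lists. Of the 5 unmarked, 4 had a summit at another TSS. With summits within 500 bp the count was 5 of 16.

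The lists also have members with more CpG, which show how far score followed CpG content. In the oligodendrocyte list, the 13 marked genes above the threshold had a median of 99.3 and the 8 below it 87.9. In the microglial list these medians were 20.6 and 12.96, in the endothelial and mural list 32.6 and 24.8, and in the astrocyte list 153.7 and 84.3. Over all marked genes they were 196.5 and 24.0. Low scores were thus found on both sides of the CpG threshold in the microglial and endothelial lists, with ranges from 10.1 to 248.5 and from 3.77 to 198.4 above it. The numbers of genes are small, and no test was made.

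No CpG-poor neuronal gene was marked at its outermost TSS (0 of 6, interval up to 39.0%), and all 21 neuronal genes with more CpG were, with a median score of 212.9. Each of the 6 had a summit elsewhere. Camk2a, a synaptic kinase, had one at 1038 bp with a score of 272.5, and Stmn2, a microtubule regulator, one at 1927 bp (152.4). Rbfox3, which encodes NeuN, had one at 3119 bp (218.8), and Pvalb, parvalbumin, one at 2013 bp (17.4). Dlg4, which encodes PSD-95, had a summit at another TSS. The highest score within 5 kb of its outermost TSS (238.1) was at -1727 bp, that is upstream. That summit lay over 1 kb from every annotated TSS of Dlg4, and whether it belongs to another gene was not worked out. Gad1, a GABA-synthesising enzyme, had a summit at another TSS over 5 kb away. With summits within 2 kb the count became 3 of 6, the upstream summit of Dlg4 included.

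Neuropeptide genes were marked in 3 of 9 CpG-poor cases. Hcrt had 45.3 at 811 bp, where CpG content was 0.539, Grp, gastrin-releasing peptide, had 18.6 at 822 bp and Nts, neurotensin, had 16.8 at 122 bp. Cck (144.2 at 1319 bp) and Tac2 (12.7 at 1688 bp) had summits within 5 kb and at another TSS, and Vip, Avp, Npff and Qrfp had none. None of the 20 immediate early genes was CpG-poor.

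Lists of other tissues had between 0 and 2 marked CpG-poor genes each, and with so few genes each interval included the background of 8.05%. Lymphocyte genes gave 2 of 16 (12.5%, 3.50 to 36.0), Ptprc (15.4), the leukocyte antigen that microglia also carry, and Il7r. Skeletal and heart muscle gave 2 of 14 (14.3%, 4.01 to 39.9), Ckm (9.05) and Pygm (8.79), and liver gave 1 of 18 (5.56%, 0.988 to 25.8), Itih3 (10.2). The summit of Ckm, where CpG content was 0.725, was nearest to the TSS of another coding gene. Erythroid (8), pancreas and gut (15) and testis (13) genes gave 0, with upper limits of the interval of 32.4%, 20.4% and 22.8%.

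**Figure D5:**
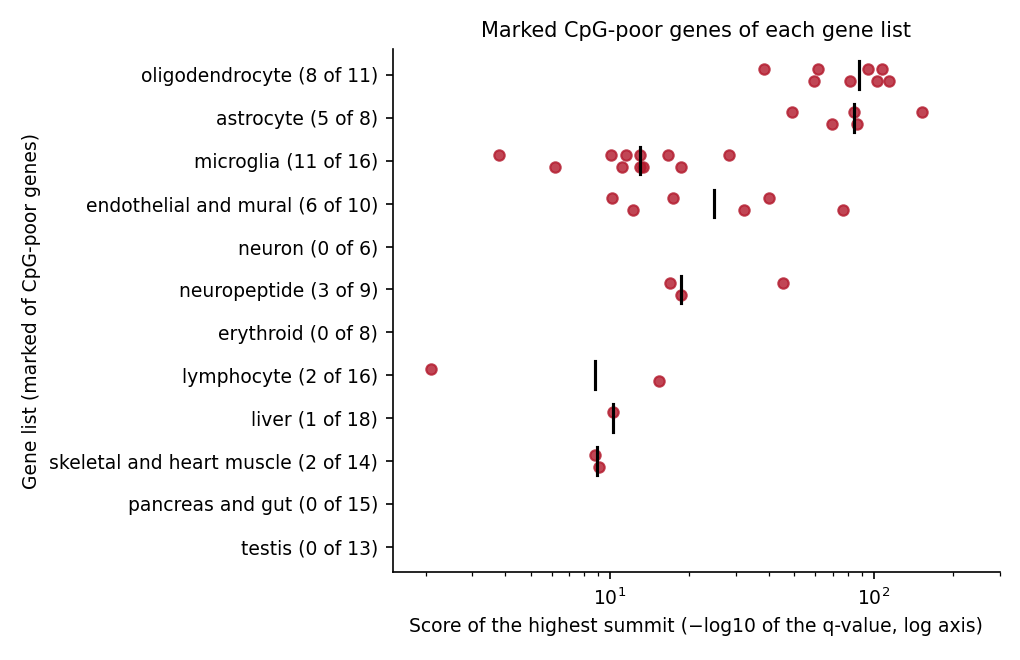
Score of the highest summit (−log10 of the q-value, log x axis) of each marked CpG-poor gene in 12 lists (rows, with the number marked of CpG-poor genes), with bars at the medians. Oligodendrocyte and astrocyte genes lie between 38.4 and 151.7, and microglial genes between 3.81 and 28.3.

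Gene families were grouped by name. In 4 of those listed at the outset the interval of the share marked lay above the background. This describes the counts only, since no test was made and the number of families was not allowed for. Potassium channels gave 6 of 27 (22.2%, 10.6 to 40.8), with Kcnj9 (266.8), Kcnc2, which encodes Kv3.2 (198.5), Kcnd1 (156.2) and Kcna5 (79.1) the highest. Receptors named Gpr or Adgr gave 9 of 43 (20.9%, 11.4 to 35.2), led by Gpr61, Gpr22 (230.4), Gpr173 (170.7) and Gpr37l1 (142.5). Zinc finger genes named Zfp gave 9 of 47 (19.1%, 10.4 to 32.5), led by Zfp950 and Zfp811 (192.4). TMEM proteins gave 13 of 49 (26.5%, 16.2 to 40.3), at 12 distinct summits, with a median score of 9.77. The receptors and TMEM proteins include genes of the microglial list.

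In the next 5 families the interval included the background of 8.05%. Solute carriers gave 11 of 102 (10.8%), with scores from 2.495 to 249.96, among them Slc15a2, a peptide transporter (64.0), and Slc39a12, a zinc transporter (56.5). Cytochrome P450 families 2 to 4 gave 6 of 68 (8.82%). These were the epoxygenase genes Cyp2j6 (196.2), Cyp2j9 (122.6) and Cyp2j12 (78.1), and Cyp4f13 (164.2), Cyp4f16 (60.8) and Cyp4f15 (19.3), all of subfamilies 2j and 4f. Serpins gave 6 of 55 (10.9%), with Serpina3n, an acute phase protease inhibitor of astrocytes, the highest (107.8). Interferons and interleukins, with receptors whose names match, gave 6 of 46 (13.04%), led by Il18 (138.4), Il33 (110.7) and Il15 (75.2). S100 proteins gave 2 of 11 (18.2%, 5.14 to 47.7), S100a16 (99.1) and S100b.

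Neighbouring genes were marked together in places. Counting neighbours among all coding genes along a chromosome, 90 members lay in 41 runs of 2 or more, and 6 runs held 3 or more. Besides 3 neighbouring microglial genes on chromosome 4, these were Slfn5, Slfn9, Slfn8 and Slfn2 (18.8, 42.1, 8.76 and 2.90) on chromosome 11, Ifit3b, Ifit1bl2 and Ifit1 (14.2, 11.7 and 11.7) on chromosome 19, Gbp9, Gbp8 and Gbp4 on chromosome 5, Pcdhb19 to Pcdhb22 (31.3, 29.9, 23.6 and 16.5), and Tex52, Gm44596 and Nrip2. The Gbp genes have TSSs within 47 bp and share 1 summit (7.80), so they are a single observation. Ifit1bl2 and Ifit1 also share 1 summit, as do Tex52 and Gm44596 (7.92). Several of the runs of 2 likewise rest on 1 shared summit. How many runs would arise without any grouping was not worked out. By chromosome, the share marked ranged from 3.90% (15 of 385) on chromosome 14 to 19.3% (21 of 109) on chromosome 18, where Pcdhb19 to Pcdhb22 lie. Chromosomes 2 and 7, with the most CpG-poor genes (666 and 965), had 5.71% and 5.49%. The part of gene families in these shares was not tested.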

How the data were processed

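The authors mapped reads with Bowtie (up to 2 mismatches, mm10), filtered them for unique placement with SAMtools and called peaks with MACS2 2.1.0.20140616 against the input, with filters on the q-value (below 0.1) and on fold enrichment. The deposited WT list holds 24162 summits of 1 bp with a score from 1.18 to 341.7 (median 102.3), taken as a −log10 q-value; peak widths and read depth are not in it. Micrococcal nuclease has sequence preferences, and their part in the scores was not tested. Depth behind each score is unknown. The other genotypes were not analysed here.

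Gene models were GENCODE M21 and sequence was GRCm38, the assembly also called mm10. Each gene took its highest-scoring summit within 1 kb. Shares have 95% Wilson intervals, which cover counting error only. Gene families with a count of 0 have the limit that 3 counts give, and cell type lists with a count of 0 have the Wilson limit. No p-value is given, because genes of 1 pooled list are not replicates. Members and lists were chosen with earlier results of these data known. Genes named are the 12 with the highest score, the 6 with the least CpG, marked genes of the cell type lists (with the unmarked of 5 lists), the genes at the borders, the 4 lowest scores, up to 4 per family and runs of 3 or more; others were named after their values were seen. Single microglial markers and some other genes of these groups are not reported here. Alternatives changed the CpG threshold and window, distance, score, TSS and motif. The method was tested on simulated data. Per-sample columns that matched no sample numbered 0. Python 3.11.15, numpy 2.4.6, scipy 1.17.1 and matplotlib 3.10.9 were used.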

Additional observations from a re-analysis of the deposited data

How the results depend on the processing

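Each choice was changed in turn. The share marked was 5.89% with CpG below 0.25 and 10.6% with CpG below 0.35, 9.07% with CpG in 250 bp and 9.63% in 1 kb either side, 5.49% with summits within 500 bp and 11.8% within 2 kb, 5.87% with a score of at least 10 and 1.84% at or above the list median, and 7.37% for genes with no other TSS within 2 kb. The median score was 18.8, 31.4, 34.3 and 30.9 under the 4 CpG settings, 46.3 within 2 kb, 47.7 with a score of at least 10 and 167.3 at or above the list median, the last pair by construction. The median distance was 363 bp with CpG in 250 bp, 233 bp with CpG in 1 kb, 206 bp with summits within 500 bp, 416 bp within 2 kb and 375 bp at or above the list median. The share with a TSS of another gene near the summit was 9.49%, 20.1% and 25.2% in those last 3 settings and 0 by construction without neighbours. TATAAA was found in 0 of the 131 members at or above the list median. With a window of 10 to 60 bases it was found in 2.62% of members and 7.67% of unmarked genes. The shorter TATAA was found in 3.32% of members and 9.46% of unmarked genes. Leaving out the chemoreceptors, chosen after seeing the data, gave 10.2% marked and 6.35% with TATAAA among the unmarked. Alternatives for the cell type lists were also chosen after seeing the data: with summits within 500 bp, 5 of 11 oligodendrocyte, 1 of 9 neuropeptide, 0 of 16 lymphocyte and 0 of 18 liver genes were marked, within 2 kb, 10 of 11 oligodendrocyte genes were marked, and at or above the list median 3 of 11 oligodendrocyte, 1 of 8 astrocyte and 0 of 16 microglial genes. Other TSS definitions moved these values by less than their intervals. The causes were not tested. No paired analysis was possible because both WT mice stand in a single pooled list, and for the same reason no replicate could be left out.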

Other observations

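Genes that interferons switch on were grouped after the values were seen, so the count is a description. Of 59 CpG-poor genes of the group, 24 were marked, at 20 distinct summits, and the share over all CpG-poor genes was 8.05%. They had scores from 2.90 to 159.9 and a median of 16.8. The immunity-related GTPases Igtp and Irgm2 shared a summit of 159.9 that lay 153 bp before the TSS of Igtp, so they count as 1 observation. Ifi27 had 135.6, Rtp4, which shares its summit with Masp1, had 102.5, and the guanylate-binding protein gene Gbp3 had 63.0. Samd9l (40.7, CpG content 0.131) and Xaf1 (36.8, 0.139) were among those with little CpG. The antiviral gene Rsad2 had 11.9.

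Receptors for neuromodulators, also grouped after the values were seen, were marked in 7 of 16 CpG-poor cases, with scores from 13.5 to 205.2. Oprl1, the nociceptin receptor, had 205.2 with a CpG content of 0.172, and Chrm1, the M1 muscarinic receptor, had 182.3 at 714 bp. Oprk1, the kappa opioid receptor, had 111.4, Trhr, the receptor of thyrotropin-releasing hormone, 64.4, and the adrenergic receptor Adra2c 36.5. The dopamine receptor Drd3 had 16.5 at 50 bp before its TSS and 5.31 at 402 bp after it, and the neuropeptide S receptor Npsr1 had 13.5. The clustered beta protocadherins, cell surface proteins of neurons, were likewise picked after their values were seen. All 7 of their CpG-poor genes were marked, beside 8.05% of all CpG-poor genes, with scores from 16.5 to 64.0. These genes are related in sequence, and any reads that map to more than 1 of them were dropped upstream. How far this bears on their scores was not tested.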
